A study of Mus musculus with 3 samples.

Results

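Transforming growth factor beta (TGF-beta) is made, stored and sensed through a small set of proteins, and 10 of their genes were measured here in mouse embryonic stem (ES) cells and mouse embryonic fibroblasts (MEF). They were the ligand genes Tgfb1, Tgfb2 and Tgfb3, the receptor genes Tgfbr1, Tgfbr2 and Tgfbr3, and the latent TGF-beta binding protein genes Ltbp1, Ltbp2, Ltbp3 and Ltbp4. A probe was a member if the gene name in the scanner file equalled one of these symbols, and every such probe was kept in both channels. This gave 16 probes of 41174 gene probes, printed as 25 spots per array, and 10 genes of 20229 genes that could be tested.

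ES cells are pluripotent lines taken from the blastocyst, and MEF are connective tissue cells grown from the fetus. The 3 arrays each carried RNA of 1 ES cell replicate in the Cy3 (green) channel and MEF RNA in the Cy5 (red) channel. Per the labels the ES cells were untreated and grew in medium with 15% defined serum and leukemia inhibitory factor, which keeps such cells undifferentiated, while the MEF grew in medium with 10% serum. No strain, age or genotype of either cell type, and no feeder layer, is given. Nothing says that the ES cell replicates were separate cultures, so p-values measure the spread between these samples, which may be technical. The MEF RNA counts as 1 control whose own spread is left out, and no array had its dyes exchanged, so a dye effect of a probe cannot be told apart from the cell type.

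TGF-beta is secreted with its own propeptide wrapped around it, and in this latent form it cannot reach a receptor. A latent TGF-beta binding protein is joined to the propeptide and ties the complex to fibrillin and fibronectin in the extracellular matrix, from which integrins, proteases and thrombospondin release the ligand. The free ligand binds the type II receptor, which phosphorylates the type I receptor, and this kinase in turn activates the receptor-regulated Smad proteins. In fibroblasts the pathway is known for driving collagen and matrix production, and pluripotent cells in culture draw on the same Smads mainly through the related ligands Nodal and activin.

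The arrays read each gene through probes of 60 bases, and where a gene had several probes, the ratios of each are given below. Such probes differ both in the stretch read and in brightness, and which of these their ratios follow was not tested. The sequences of 5 probes are shown, 5′ to 3′ as deposited, because the other probes of the same genes, or the repeated spots of the same probe, gave the comparisons made further on. No letter is capitalised, since no part is singled out. Positions are those of the scanner files in mouse build mm7. No annotation of that build was used, so exon, intron and untranslated region are not given.
Tgfb1, the probe with 10 spots, chr7:22478890-22478949, plus strand: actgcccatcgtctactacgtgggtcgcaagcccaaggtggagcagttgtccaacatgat
Tgfbr1, the dimmer probe, chr4:47420840-47424498, plus strand: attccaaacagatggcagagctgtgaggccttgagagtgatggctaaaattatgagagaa
Tgfbr2, the second brightest probe, chr9:115782405-115782464, minus strand: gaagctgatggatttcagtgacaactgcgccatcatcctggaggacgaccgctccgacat
Ltbp2, the dimmer probe, chr12:82877992-82878051, plus strand: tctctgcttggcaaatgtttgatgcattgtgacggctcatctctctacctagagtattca
Ltbp3, the dimmer probe, chr19:5646569-5646628, plus strand: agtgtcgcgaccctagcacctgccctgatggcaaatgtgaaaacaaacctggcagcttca
The Tgfbr1 probe has coordinates 3659 bp apart for 60 bases, so it does not lie in 1 unbroken stretch of that build. The dimmer Ltbp2 probe lies on the plus strand, whereas the Ltbp2 gene lies on the minus strand in RefSeq. Of 23471 probes for which both strands were known, 393 (1.67%) lay opposite to their gene in this way.

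Promoters of 8 of the 10 genes, with 12 start sites, were matched in RefSeq (GRCm38.p6). The 250 bases before the start site are shown for 4 of the genes that were lower in ES cells, since they differ in their core elements. Capitals mark the motifs found on either strand, which were the TATA box (TATAAA), the GC box (GGGCGG, or CCGCCC on the other strand), the CCAAT box (CCAAT, or ATTGG), the E-box (CACGTG) and the cyclic AMP response element (TGACGTCA). No motif of this list is part of another.
Tgfb1, chr7:25686752-25687001, plus strand: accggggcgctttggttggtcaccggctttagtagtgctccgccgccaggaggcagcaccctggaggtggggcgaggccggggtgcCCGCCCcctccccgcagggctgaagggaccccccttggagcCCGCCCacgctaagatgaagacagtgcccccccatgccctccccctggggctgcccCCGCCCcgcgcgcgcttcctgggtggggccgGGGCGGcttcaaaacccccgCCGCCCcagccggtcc
Tgfb2, chr1:186705990-186706239, minus strand: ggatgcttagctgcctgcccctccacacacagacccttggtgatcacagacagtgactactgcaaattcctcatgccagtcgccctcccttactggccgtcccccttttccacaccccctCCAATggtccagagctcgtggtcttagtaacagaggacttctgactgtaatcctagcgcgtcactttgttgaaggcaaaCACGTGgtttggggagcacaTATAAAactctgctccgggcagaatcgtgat
Tgfbr2, chr9:116175364-116175613, minus strand: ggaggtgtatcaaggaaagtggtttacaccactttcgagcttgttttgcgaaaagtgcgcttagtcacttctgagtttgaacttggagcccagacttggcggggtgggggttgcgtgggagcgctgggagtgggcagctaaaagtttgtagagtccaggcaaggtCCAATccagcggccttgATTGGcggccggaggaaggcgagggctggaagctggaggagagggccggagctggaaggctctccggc
Ltbp1, the upstream start, chr17:75005279-75005528, plus strand: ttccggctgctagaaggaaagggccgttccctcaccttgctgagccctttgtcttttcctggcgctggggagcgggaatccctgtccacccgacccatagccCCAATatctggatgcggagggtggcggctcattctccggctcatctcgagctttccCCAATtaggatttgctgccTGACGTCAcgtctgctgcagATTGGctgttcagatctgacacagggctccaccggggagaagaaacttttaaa
The Tgfb1 window held 5 GC boxes and no TATA box, at a GC content of 75.2% against a median of 52.4% over all promoters. Genes that were not lower had such windows too, also without a TATA box. The window of 1 start of Ltbp4 held 5 GC boxes at 79.2%, and that of 1 start of Tgfbr1 held 2 at 74.8%. The Tgfb2 window held 1 TATA box, 1 CCAAT box and 1 E-box. That of Tgfbr2 held 2 CCAAT boxes, and that of Ltbp1 held 3 CCAAT boxes and 1 cyclic AMP response element. The windows of Ltbp3 and of the downstream Ltbp1 start, genes also lower in ES cells, are not shown and held none of these motifs. Over 32851 promoters of the same length, 12.4% held the TATA box, 32.7% the GC box, 33.8% the CCAAT box, 6.02% the E-box and 1.55% the response element. These matches describe letters in a window and are not binding sites.

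The labelled cell types were checked first. ES cell markers were higher in the ES cell channel for 9 of 9 genes, with log2 ratios of 3.75 for Pou5f1 and 4.02 for Nanog, and fibroblast markers were lower for 10 of 10, with -8.10 for Col1a1 and -2.52 for Thy1. The markers of macrophages, a blood cell type that also makes TGF-beta, were lower in ES cells for 9 of 9 genes as well, and their summed signal was 423648 to 457306 in the MEF channel and 10071 to 10503 in the ES cell channel. None of the 9 was at background in MEF. The fibroblast markers summed to 1788761 to 1803345 in MEF and 46675 to 48726 in ES cells. Of 5 tested skeletal and smooth muscle markers 4 were lower as well and 1 was not called. Their summed signal was 37299 to 38644 in MEF and 3747 to 3964 in ES cells. The fibroblast, macrophage and most muscle markers thus moved with every lower ratio reported below, and their part in it was not tested. Between 68.2% and 74.0% of gene spots were well above background per channel and array, the arrays correlated at 0.998 across probes, and the median SD of a probe over the arrays was 0.030 on the log2 scale.

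Of the 10 genes, 7 were lower in ES cells than in MEF and 0 were higher. A gene was called when the limma test gave a Benjamini-Hochberg adjusted p under 0.05 and the mean log2 ratio of its brightest probe was at least 1 in size. Over all genes tested, 22.2% were called lower and 20.3% higher. The adjusted p alone would pass 95.4% of genes, so calls depend on the size of the ratio. Where signals are said below not to overlap, they are signals before normalization. The share of all probes for which that holds was not counted, so it marks no gene as unusual. All 7 were lower by at least 4-fold, against 9.39% of all genes, and 4 of them (Tgfb3, Tgfbr2, Ltbp3 and Tgfb2) by at least 16-fold, against 1.15%. With median centring in place of loess, Ltbp3 (-3.99) and Tgfb2 (-3.93) fell just short of 16-fold. The median log2 ratio of the 10 genes was -2.80, and that of all genes was -0.04. The genes not called were Tgfbr1, Tgfbr3 and Ltbp4. Of the 15 tested probes 10 were called lower and 0 higher, against 21.1% and 19.9% of all tested probes. In whole-culture RNA, fewer cells that express a gene and less RNA per cell cannot be told apart.

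**Figure D1:**
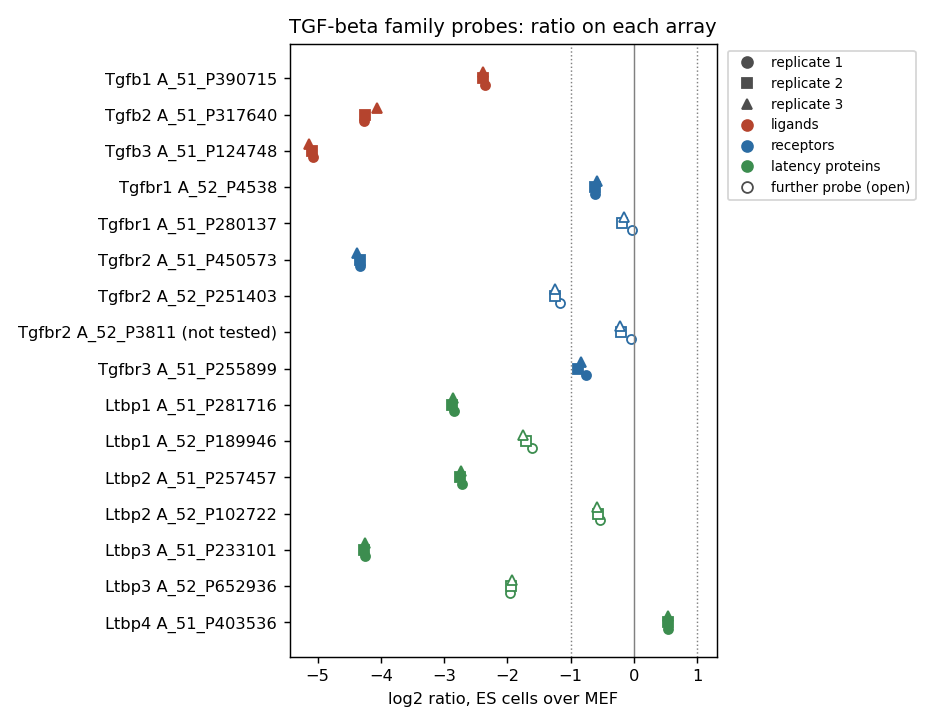
Log2 ratio of ES cells over MEF (horizontal axis) for each of the 16 probes on each of the 3 arrays, with symbols for the replicate, colours for the role, filled symbols for the brightest probe of a gene and open symbols for its further probes. Dotted lines mark the ratio of 1 in size used for calls; 7 genes lie left of it by their brightest probe, and Ltbp4 alone lies right of 0.

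All 3 ligand genes were lower in ES cells, and Tgfb3 had the largest ratio of the 10 genes. Tgfb3, a ligand known for its part in palate fusion, gave ES cell signals of 2881, 2906 and 2698 and MEF signals of 84427, 86155 and 84595 on replicates 1 to 3. Every ES cell value lay far below every MEF value, though well above the local background. The log2 ratios were -5.07, -5.09 and -5.14, with a mean of -5.10 ± 0.034 (SD, n = 3), or 34.3-fold lower (limma adjusted p = 1.9e-07). It ranked 62 from the lowest of the 20229 genes. The probe lies at chr12:84058334-84058393 on the minus strand.

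Tgfb2, a ligand with a large part in heart and skeletal development, gave ES cell signals of 821, 805 and 901 and MEF signals of 13742, 13471 and 13658. The groups did not overlap, and replicate 3 had the highest ES cell signal. Its log2 ratios were -4.26, -4.26 and -4.07, so replicate 3 stood above the other arrays, and the SD of 0.11 exceeded the median SD of a probe. The mean of -4.19 was an 18.3-fold difference (limma adjusted p = 6.3e-07, n = 3). The probe lies at chr1:186149057-186149116 on the minus strand.

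Tgfb1, the most widely expressed ligand of the family and the main one in immune cells, had the smallest ratio of the ligand genes. Its ES cell signals were 1255, 1213 and 1185 and its MEF signals 5670.0, 5562 and 5634. Here too the groups did not overlap. The mean log2 ratio of -2.38 ± 0.017 (SD, n = 3) was a 5.19-fold difference (limma adjusted p = 2.1e-07), and it ranked 1377 from the lowest.

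The Tgfb1 probe was printed 10 times on every array, which shows how much of its error arises within an array. On replicate 1 the spots ran from -2.39 to -2.31 with a median of -2.37, after 1 outlier spot was left out. On replicate 2 they ran from -2.43 to -2.33 with a median of -2.39, and on replicate 3 from -2.43 to -2.33 with a median of -2.40. The spots of all 3 arrays thus covered nearly the same narrow range. The SD among spots was 0.026 to 0.029 within an array. The 3 array means had an SD of 0.017, against 0.0088 that the spread of 29 spots alone would give.

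**Figure D2:**
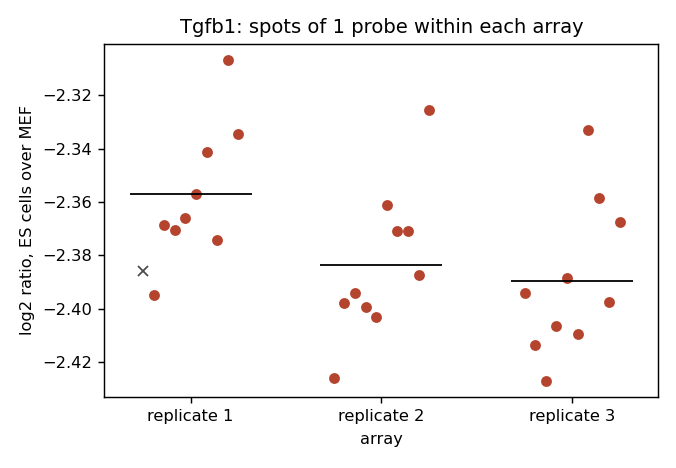
Log2 ratio of ES cells over MEF for each spot of the Tgfb1 probe (vertical axis) by array, with horizontal position within an array following file order. Black lines are the means of the spots used, -2.36, -2.38 and -2.39, and the cross is the outlier spot left out; the axis spans only a small part of the distance to 0.

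The receptor genes split. Tgfbr2 was lower in ES cells by over 16-fold, while Tgfbr1 and Tgfbr3 differed by less than the fold minimum. Tgfbr2 encodes the type II receptor, which binds the free ligand first. Its brightest probe (chr9:115760364-115760423, minus strand) gave ES cell signals of 1770, 1812 and 1772 and MEF signals of 31362, 31870 and 32883. The groups lay far apart on every array. The mean log2 ratio was -4.35 ± 0.023 (SD, n = 3), a 20.3-fold difference (limma adjusted p = 1.9e-07).

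The second brightest Tgfbr2 probe, whose sequence is shown above, lies 22041 bp from the brightest and is named by another transcript record. It gave ES cell signals of 161, 151 and 122 and MEF signals of 317, 324 and 286, and the ES cell channel was well above background on 2 of the 3 arrays. Its groups did not overlap, but both were dim. Its log2 ratio was -1.23 ± 0.052 (SD, n = 3; limma adjusted p = 3.0e-06), which is also a call. The third Tgfbr2 probe, 42690 bp from the brightest, was well above background on 0 arrays in ES cells and on 1 in MEF, and was not tested.

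Tgfbr1 encodes the type I receptor, the kinase that activates the Smads. Its brightest probe (chr4:47428363-47428422, plus strand) gave ES cell signals of 5511, 5376 and 5323 and MEF signals of 7390, 7188 and 7176. ES cells were lower on every array, and the groups did not overlap. The mean log2 ratio was -0.60 ± 0.014 (SD, n = 3; 95% confidence interval -0.64 to -0.57; limma adjusted p = 4.0e-06), a 1.52-fold difference that did not reach the fold minimum. With the scanner software's processed signals it was -0.45 and with median centring -0.33, both outside that interval and not called. The dimmer probe gave ES cell signals of 169, 146 and 137 and MEF signals of 152, 157 and 147, and these overlapped. Its ratio was -0.12 ± 0.082 (95% confidence interval -0.22 to -0.02; limma adjusted p = 0.029). So both cell types gave clear Tgfbr1 signal at the brightest probe, and the interval there, which covers the spread between arrays only, ended well short of the Tgfbr2 ratio.

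Tgfbr3 encodes betaglycan, a co-receptor that presents ligand, above all TGF-beta made from Tgfb2, to the type II receptor. Its probe (chr5:106286319-106286378, minus strand) was dim in both channels, with ES cell signals of 175, 152 and 145 and MEF signals of 253, 254 and 247. The groups did not overlap. The log2 ratio was -0.83 ± 0.064 (SD, n = 3; 95% confidence interval -0.91 to -0.75; limma adjusted p = 1.8e-05), 1.77-fold lower and not called. With the scanner software's processed signals it was -1.33, and with no offset in the background correction -1.13, and it was then called.

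**Figure D3:**
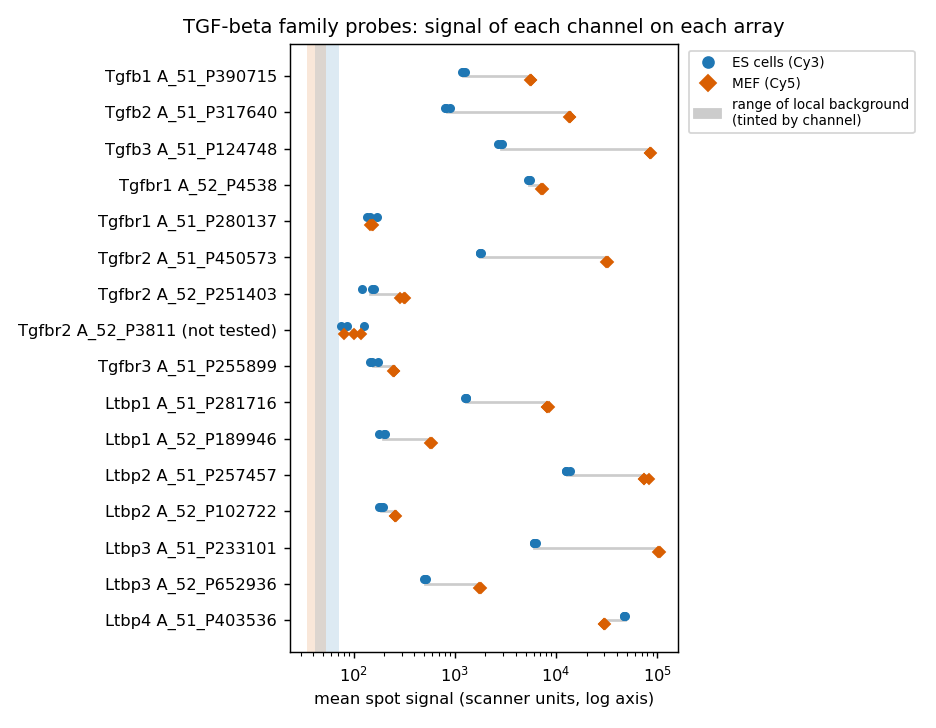
Mean spot signal in scanner units (logarithmic horizontal axis) of each of the 16 probes in the ES cell channel (blue circles) and the MEF channel (orange diamonds) on each of the 3 arrays, with tinted bands for the range of local background and grey lines between channel means. Channels lie furthest apart for Tgfb3, Tgfbr2, Ltbp3 and Tgfb2, whereas the dimmer Tgfbr1 probe, the third Tgfbr2 probe and Tgfbr3 sit near the bands; these signals are before normalization, and levels of different probes cannot be compared.

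Of the latent TGF-beta binding protein genes, Ltbp1, Ltbp2 and Ltbp3 were lower in ES cells and Ltbp4 was not. Ltbp3, whose protein stores TGF-beta in bone and other tissues, had the largest ratio of this group. Its brightest probe (chr19:5653092-5653152, plus strand) gave ES cell signals of 6359, 6008.3 and 6008.5 and MEF signals of 107305, 101014 and 103324. The groups lay far apart. The log2 ratio was -4.26 ± 0.0067 (SD, n = 3), a 19.1-fold difference (limma adjusted p = 1.9e-07).

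Ltbp1 encodes the best studied carrier of latent TGF-beta in connective tissue. Its brightest probe (chr17:73681221-73681354, plus strand) gave ES cell signals of 1284, 1267 and 1278 and MEF signals of 8170.0, 8135 and 8448, with no overlap. The log2 ratio was -2.86 ± 0.013 (SD, n = 3), or 7.27-fold lower (limma adjusted p = 1.9e-07). The probe has coordinates 134 bp apart for 60 bases.

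Ltbp2 differs from the other genes of its family in that its protein is not known to bind latent TGF-beta and instead binds fibrillin. Its brightest probe (chr12:82783519-82783578, minus strand) was bright in both cell types, with ES cell signals of 12678, 12435 and 13674 and MEF signals of 74600, 73877 and 83694. The groups did not overlap, and both channels were highest on replicate 3. The log2 ratio was -2.73 ± 0.017 (SD, n = 3), or 6.64-fold lower (limma adjusted p = 1.9e-07).

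Ltbp4, a binding protein gene needed for elastic fibre assembly, ran the other way. Its only probe (chr7:24224015-24224074, minus strand) gave ES cell signals of 47011, 48107 and 47410 and MEF signals of 29632, 29891 and 30168. Here the ES cell values were the higher ones on every array and did not overlap those of MEF. The log2 ratio was 0.54 ± 0.0025 (SD, n = 3; 95% confidence interval 0.50 to 0.57; limma adjusted p = 4.2e-06). This is a 1.45-fold difference, under the fold minimum, and 13782 places from the lowest of the 20229 genes. With the scanner software's processed signals the log2 ratio was 0.66, and with median centring 0.76. Both lay outside that interval, which covers the spread between arrays only, and neither was called.

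Of the 10 genes, 5 had further tested probes, which made it possible to ask whether probes of 1 gene gave 1 ratio. The difference between each further probe and the brightest probe was tested within arrays with limma. It was called for 4 of 5 further probes, against 20.5% of the 9227 further probes over all genes. The 4 include the dimmer Ltbp2 probe, which lies opposite to its gene and is not known to read it. A further probe is dimmer than the brightest by definition, and in every one of the 5 it had a ratio nearer to 0. Over all genes 60.2% of further probes had a smaller ratio than the brightest probe. These shares were not matched for the size of the ratio, and the median log2 ratio of all genes was -0.04.

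The largest difference was that of Tgfbr2, where the second probe was higher in log2 ratio by 3.12 ± 0.047 (SD, n = 3; limma adjusted p = 4.0e-07). Those Tgfbr2 probes are named by different transcript records, as given above. The dimmer Ltbp3 probe, 6523 bp from the brightest, gave ES cell signals of 514, 499 and 511 and MEF signals of 1791, 1735 and 1814. Its log2 ratio of -1.95 ± 0.015 was a call, and the difference was 2.31 ± 0.020 (adjusted p = 4.1e-07 by limma). Both probes thus read Ltbp3 as lower in ES cells, by unequal amounts.

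The dimmer Ltbp2 probe, which lies on the opposite strand and 94473 bp away, gave ES cell signals of 194, 186 and 180.0 and MEF signals of 262, 255 and 257. Its log2 ratio of -0.56 ± 0.020 was not a call, and the difference from the brightest was 2.17 ± 0.0070 (limma adjusted p = 4.1e-07). Ltbp2 was therefore the only gene of the 7 with a tested probe under its name that was not called. Since that probe lies opposite to the gene, it is not known to read Ltbp2 RNA. The dimmer Ltbp1 probe (chr17:73515726-73515785), 165495 bp away, gave ES cell signals of 206, 201 and 178 and MEF signals of 566, 589 and 577. Its log2 ratio was -1.69 ± 0.071, a call, and the difference was 1.17 ± 0.060 (limma adjusted p = 3.1e-06).

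For Tgfbr1 the difference of 0.48 ± 0.088 (limma adjusted p = 0.00019) was under 1 and not called. The background correction adds an offset of 50 scanner units, which draws ratios of dim probes toward 0. Without it the differences were 2.73 for Tgfbr2, 2.18 for Ltbp3, 1.97 for Ltbp2 and 0.88 for Ltbp1, and the last was no longer called. With the processed signals they were 2.23, 2.15, 1.76 and 0.54. The mean over all tested probes of a gene was -2.79 for Tgfbr2, -3.10 for Ltbp3, -1.65 for Ltbp2, -2.28 for Ltbp1 and -0.36 for Tgfbr1, and all of these genes except Tgfbr1 were called by it. The mean for Ltbp2 takes in its probe on the opposite strand.

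**Figure D4:**
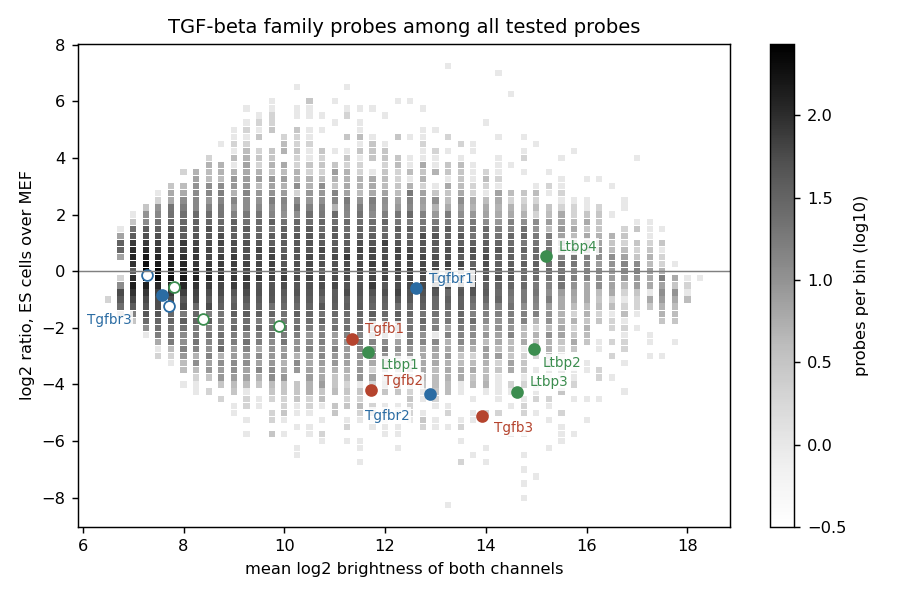
Log2 ratio of ES cells over MEF (vertical axis) against mean log2 brightness of both channels (horizontal axis) for all 29456 tested probes, as grey bins shaded by the log10 number of probes, and for the 15 tested probes of the 10 genes (filled for the brightest probe, labelled, and open for further probes). The bins narrow toward low brightness, where most open symbols lie, though the dimmer Ltbp3 probe is brighter, at 9.89. Few probes near the brightness of Tgfb3 have a ratio below its -5.10.

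Other probes in the files are described as TGF-beta receptor sequence or lie between the probes of a member under another name. They were picked after their values were seen and are no members. A transcript cluster described as a type I receptor precursor (chr4:47397777-47397836) had a log2 ratio of -0.22 ± 0.011 (SD, n = 3) and was not called, as for Tgfbr1 itself. A probe between those of Ltbp1 (chr17:73529549-73529608) had a ratio of -1.04 ± 0.090 and was called lower. A probe described as a type II receptor isoform (chr16:72346797-72346856) was at background in both channels on all 3 arrays. The Tgfbr2 probes lie on chr9, so this probe is not known to read that gene.

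The remaining genes of the pathway were read from 5 lists with 80 genes, of which 76 were measured. Among these 56 were lower in ES cells, 4 were higher and 16 were not called, with a median log2 ratio of -2.47 over the 76. The shares over all tested genes, against which each list below can be set, were 22.2% lower and 20.3% higher. All 4 higher genes were in the list for intracellular signalling, and the other 4 lists held 52 of the 56 lower genes. In each case a gene was counted by its brightest probe, and the values below are log2 ratios of ES cells over MEF, mean ± SD over 3 arrays, with calls from the limma fit. Means over all tested probes of a gene were nearer to 0 for Nrp1 (-3.10), Bgn (-2.80), Htra3 (-2.45) and Timp1 (-1.46), whose tested probes were all called. Of 3 tested probes each, 2 were called for Cd109 and Smad3 and 1 for Ski.

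Of 7 measured receptors and co-receptors other than the members, 5 were lower, 0 were higher and 2 were not called, with a median of -1.66. The lowest was Nrp1, a co-receptor shared with semaphorins and VEGF, at -3.78 ± 0.011. Vasn, which encodes the TGF-beta trap vasorin, was at -3.16 ± 0.0086, and the type I receptor gene Acvr1 was at -2.31 ± 0.021. Acvrl1, the type I receptor of endothelium, was at -1.66 ± 0.061, and Cd109, a co-receptor that promotes receptor turnover, at -1.52 ± 0.0078. The values of the genes not called were 0.61 ± 0.021 for Eng, the co-receptor endoglin, and -0.56 ± 0.0097 for Bambi, a decoy receptor.

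The list for latency, release and activation had 23 measured genes, of which 22 were lower, 0 were higher and 1 was not called, with a median of -3.04. The list takes in genes of matrix proteins as well as those of integrins and proteases. The lowest were Fbln5 at -6.27 ± 0.067, Fbn2 at -5.39 ± 0.11 and Fbn1 at -4.88 ± 0.026, which encode an elastic fibre protein and the fibrillins to which the binding proteins attach. Averaged over all their tested probes, Fbln5 was at -4.41 and Fbn1 at -4.62. At the other end were the integrin genes Itgb8 at -1.81 ± 0.65 and Itgb3 at -1.33 ± 0.0085, whose proteins pair with the alpha v chain to release ligand. Of the 2 tested Itgb3 probes only 1 was called, and their mean was -0.91. The wide SD of Itgb8 belongs to its brightest probe, and its other tested probes gave -2.66 ± 0.032 and -1.67 ± 0.093. Adamtsl2, which encodes a matrix protein that binds the carriers, was not well above background in ES cells on any array. Its MEF level was at least 1.70-fold higher, taking the lowest signal well above background as the ES cell limit. Mmp9, a protease able to activate latent ligand, was the gene not called, at -0.28 ± 0.091.

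All 7 extracellular antagonists and ligand-binding proteoglycans were lower in ES cells, with a median of -3.99. The lowest were the small leucine-rich proteoglycan genes Aspn at -6.02 ± 0.067 and Fmod at -5.19 ± 0.038, and the secreted protease gene Htra1 at -4.60 ± 0.027. The ratios nearest to 0 were those of Htra3 at -3.44 ± 0.090, Dcn at -3.73 ± 0.037 and Bgn at -3.83 ± 0.0099, the last pair encoding decorin and biglycan. Thus genes for proteins that hold TGF-beta back were lower along with the ligand genes.

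Of 20 genes known as targets of the pathway, 18 were lower in ES cells, 0 were higher and 2 were not called, with a median of -3.23. The lowest were the collagen genes Col1a1 at -8.10 ± 0.015 and Col1a2 at -7.36 ± 0.060, and Postn, which encodes periostin, at -7.08 ± 0.049. Averaged over all their tested probes, each of which was called, Col1a1 was at -5.93 and Col1a2 at -5.19. Col1a1, Col1a2 and Postn also stand in the list of fibroblast markers. The called genes nearest to 0 were the oxidase gene Nox4 at -1.46 ± 0.18, the transcription factor gene Junb at -2.07 ± 0.0061 and the protease inhibitor gene Timp1 at -2.12 ± 0.016. Among the genes not called was Id1, a target of bone morphogenetic protein signalling as well, at -0.92 ± 0.023.

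The 19 intracellular signalling genes had no common direction, with 4 lower, 4 higher and 11 not called, and a median of -0.04. These counts are close to the shares over all genes, 22.2% lower and 20.3% higher, so they do not set this list apart. The highest was the inhibitory Smad gene Smad7 at 2.35 ± 0.034, followed by Tgif2 at 1.59 ± 0.0043, Nedd4l at 1.25 ± 0.016 and Tgif1 at 1.04 ± 0.0027. The TGIF proteins are corepressors of Smad transcription, and the ubiquitin ligase made from Nedd4l removes activated Smads. The lowest was the other inhibitory Smad gene, Smad6, at -2.44 ± 0.032. Smad3, a receptor-regulated Smad gene, was at -1.49 ± 0.019, whereas Smad2, another of that kind, was at -0.17 ± 0.0048 and not called. The corepressor gene Ski was at -1.04 ± 0.012. Tgfbrap1, a receptor-associated protein gene, was at -1.89 ± 0.021 by its brightest probe, whereas its other tested probe gave 0.51 ± 0.071. The call of Ski was lost under 3 of the 11 settings of processing, filter and array left out. Its mean over all tested probes, -0.89, was under the fold minimum too, and only 1 of its 3 tested probes was called.

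**Figure D5:**
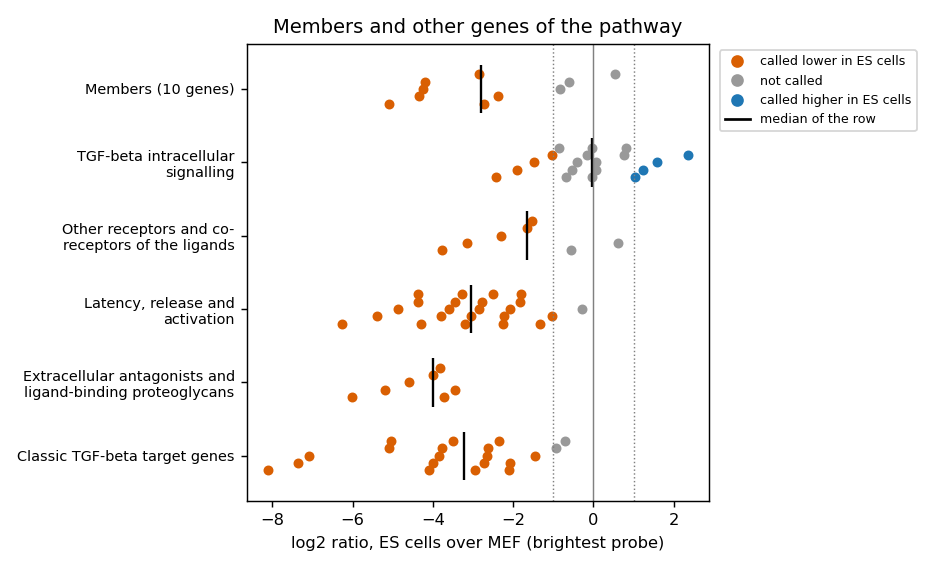
Log2 ratio of ES cells over MEF (horizontal axis) by the brightest probe of each gene, for the 10 member genes and the 76 measured genes of 5 lists of other pathway genes, with orange for genes called lower in ES cells, blue for genes called higher, grey for genes not called and a black line for the median of each row. The intracellular genes lie on both sides of 0 around a median of -0.04, whereas the medians of the other rows lie between -1.66 and -3.99.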

How the data were processed

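RNA of 3 ES cell replicates and of MEF was compared on 3 2-colour Agilent arrays. Agilent Feature Extraction 9.5.3.1 was used by the authors to quantify the scans, and probe positions are in build mm7, per the file headers. The deposited intensities are mean spot and median background brightness, without subtraction. The deposited log10 ratio and processed intensities come from the same software. The authors' deposited log2 value table equalled log2 of processed ES cells over MEF within 0.01 for 100% of probes on each array. Its column medians were 0.213, 0.0859 and -0.143, so it is not centred, and its scale and direction are settled by that match. A line of the design text gives the Cy5 sample another name than MEF, and the sample labels were followed. All arrays lay on 1 slide, so slide could not be tested as a batch.

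Signals were corrected with normexp (offset 50) and normalized by loess within each array, with control spots at weight 0, in limma 3.58.1 under R 4.3.3. Outlier spots, 117 to 144 per array, were dropped, and repeated spots averaged. Median signals were 398 to 421 in ES cells and 381 to 391 in MEF, over backgrounds of 38 to 56, and no member spot was saturated. The number of arrays limits the precision. The test took the 29456 probes that exceeded background clearly in at least 1 channel, ES cell or MEF, on all 3 arrays. Ratios were tested against 0 (lmFit and eBayes, Benjamini-Hochberg over all tested probes), and differences between probes of a gene in the same way. Names of genes other than members came through the accession (22951 probes) in the RefSeq table or from the file (18223). Of the lists, Tgfbr3l and Lrrc32 had no matched probe, and Itgb6 and Plg were not tested.

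The procedure was tested on simulated data. Members and lists were chosen with earlier results of these data known. Named genes were all members, the 3 highest and 3 lowest called genes of each list, all genes of a count of 5 or fewer, and Pou5f1, Nanog, Col1a1 and Thy1; Smad2 and the other probes of Itgb3, Itgb8 and Tgfbrap1 were named after their values were seen. A gene that this rule takes in is not reported here. Marker lists of other cell types gave 2 lower and 2 higher of 5 tested endothelial genes, 4 lower of 5 muscle genes, and no call among 2 keratinocyte genes and 1 visceral endoderm gene. Alternatives concerned background, normalization, filters, outlier spots, the value table, the probe rule, the fold minimum and each array left out.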

Additional observations from a re-analysis of the deposited data

How the results depend on the processing

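The count of member genes lower in ES cells was 7 in every setting except 5. It was 8 with processed signals, with no offset and with the authors' value table, where Tgfbr3 was called, and 6 when every tested probe had to be called, since Ltbp2 then dropped out. That loss rests on the Ltbp2 probe on the opposite strand. With no fold minimum 9 member genes were lower and 1, Ltbp4, was higher, and 9 pathway genes were higher in place of 4. Pathway genes lower numbered 51 to 66 against 56. Leaving out each replicate gave 7 member genes in each case and 55 to 56 pathway genes. No member probe changed direction in any setting. Median centring in place of loess moved the median log2 ratio of all probes from -0.02 to 0.15, and pathway genes higher to 6. The second Tgfbr2 probe ranged from -2.09 with the authors' value table to -1.15, and had no value where both channels had to be above background. Probes that differed from the brightest numbered 3 with no offset and with processed signals, against 4. ES cells and MEF were paired on each array, and the test used the ratio within an array, so no further pairing was made. Dim probes limit the Tgfbr3 result and those of most further probes, and the spread of MEF RNA was not measured.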
